A study of Homo sapiens with 4 samples.

Results

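The vascular endothelial growth factors (VEGF), the angiopoietins and their receptors were examined in BJ-TE cells, an established line that goes back to the BJ fibroblasts of human foreskin. The set holds 10 named genes: the ligands VEGFA, VEGFB, VEGFC and PGF, the receptor FLT1 and the co-receptors NRP1 and NRP2, and the angiopoietin-type ligands ANGPT1, ANGPTL2 and ANGPTL4. Members were the Affymetrix probe sets annotated to exactly 1 of these symbols. This gave 22 probe sets of 9 genes, of 11963 genes with such a probe set on the array. No probe set was annotated to ANGPTL2 in the table used here, and its values were not analysed. The genes were selected on the log2 ratios of these 4 arrays as known from an earlier look at them, the large VEGFA ratio between the stages among them. Their own values on the arrays are therefore a description; no single member's p-value is printed, and counts of members past a model's threshold stand only beside the same count over all genes.

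Total RNA of 4 cultures was measured, each on 1 array. BJ-TE cells carrying the control hairpin (ns shRNA) were collected at 40% and at 100% confluence. Cells carrying a short hairpin RNA against the transcription factor p73 (p73 shRNA) were collected at the same 2 stages. The study asked what p73 does against malignant transformation, and its design names the stages of confluence. Every group was a single array of 1 cell line, no label says how many clones or infections stand behind a culture, and all 4 groups carry a hairpin. The hairpin's target gave no check of the labels: the TP73 probe set had intensities of 1.65 to 2.09, between the 2.18th and 3.84th percentile of its array.

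VEGF ligands are secreted dimers that bind receptor tyrosine kinases on endothelial cells and drive the growth of blood and lymph vessels. Neuropilins present these ligands, and class 3 semaphorins, to the signalling receptors. Angiopoietins bind the endothelial receptor TEK, and angiopoietin-like proteins share their fold but not that receptor. Fibroblasts are known mainly as a source of the ligands, and VEGFA is a textbook target of the hypoxia-inducible factors (HIF).

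The arrays carried fibroblast and few endothelial transcripts. All 14 fibroblast markers lay above the brightness filter, a mean of 6.94 on the log2 scale used below or an intensity of about 111. Of 13 endothelial markers on the array 1 did so, endoglin (ENG), and the summed intensity of the 13 was 1449 to 1735 at 40% and 1194 to 1343 at 100% confluence. The junction proteins PECAM1 and CDH5 and the clotting factor VWF stayed at intensities of 1.65 to 29.9. The VEGF receptor KDR (1.15 to 22.2), the lymphatic VEGF receptor FLT4 (3.34 to 33.7) and the angiopoietin receptor TEK (42.3 to 76.4) were below the filter. Of the other epithelial, blood, and smooth muscle and pericyte markers, 1 of 9, 1 of 7 and 5 of 9 passed it. Of the fibroblast markers 8 rose and 1, THY1, fell at confluence in the limma fit over all genes, their summed intensity was 81265 to 89339 at 40% and 96171 to 100782 at 100% confluence, and the part of this in the results was not tested. Level per cell and the share of cells that express a gene cannot be told apart in RNA of whole cultures. Median intensity was 105 to 122 on the 4 arrays.

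VEGFA, the ligand of FLT1 and KDR, was higher in confluent cells with either hairpin, and on all 4 of its probe sets. For probe set 210512_s_at the intensity was 280.4 with ns shRNA and 248 with p73 shRNA at 40% confluence, and 3357 and 2696 at 100%. Both confluent arrays lay far above both sparse ones, a 12.0-fold ratio of intensities with ns shRNA and 10.9-fold with p73 shRNA. On the scale used for all further differences, log2(intensity + 11.6), the ratios were 3.53 and 3.38, averaging 3.46 (SE 0.18, from the spread pooled over genes in the model below). By the size of this average VEGFA ranked 1 of 6759 genes, the position for which it was included here.

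The other VEGFA probe sets showed the same direction with unequal sizes. Probe set 212171_x_at had intensities of 87.7 (ns) and 127 (p73 shRNA) at 40%, and 808 and 726 at 100%. For 210513_s_at the values were 40.4 and 98.8 at 40%, and 251 and 270.3 at 100%. For 211527_x_at, whose mean was below the filter, they were 61.8 and 4.796 at 40%, and 287 and 282 at 100%. In each case the arrays of the 2 stages did not overlap, as was true of 33.1% of all probe sets above the filter in this direction. Probe set 210513_s_at was under the filter on both sparse arrays and passed it through the confluent ones. Average log2 changes were 2.73, 1.84 and 3.09. Probe sets of 1 gene share their target and RNA and are not replicates. At 40% confluence the 3 dimmer probe sets differed between the hairpins in both directions, with log2 ratios of 0.48, 1.08 and -2.16 for p73 over ns shRNA. At 100% they lay between -0.15 and 0.11, and that of 210512_s_at was -0.32.

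**Figure D1:**
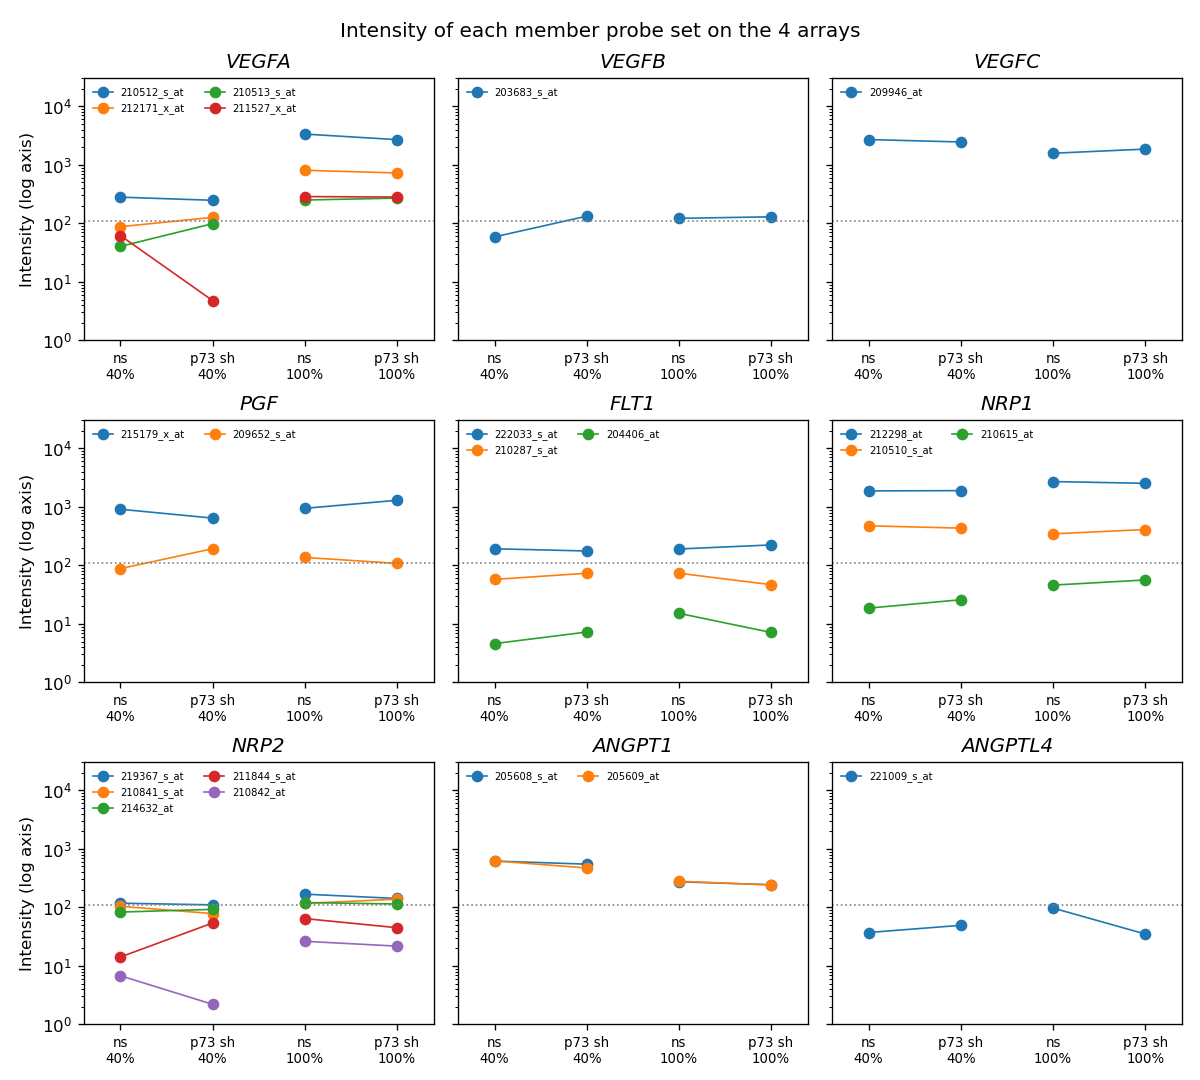
Intensity (log axis) of every probe set of the 9 measured genes on the 4 arrays, ns and p73 shRNA at 40% and 100% confluence; lines join the 2 hairpins of a stage, and the dotted line is the brightness filter at an intensity of about 111. All 4 VEGFA probe sets are higher on both confluent arrays, both ANGPT1 probe sets are lower, and ANGPTL4, VEGFB and several NRP2 and FLT1 probe sets lie near or below the filter.

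VEGFC, the lymphatic growth factor that binds FLT4, went the other way. Its single probe set had intensities of 2705 (ns) and 2459 (p73 shRNA) at 40%, and 1578 and 1858 at 100%. The stages did not overlap, and log2 ratios of -0.77 and -0.40 averaged -0.59 (SE 0.18). VEGFB, a FLT1 ligand, had a mean of 6.88, just under the filter, which is a median brightness and not a limit of detection. Its intensities were 58.8 (ns) and 133 (p73 shRNA) at 40%, and 122 and 129 at 100%, so that only the sparse ns shRNA culture was low.

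PGF, the placental growth factor and a further FLT1 ligand, differed between its probe sets. Probe set 215179_x_at read 910.2 (ns) and 642 (p73 shRNA) at 40%, and 944 and 1294 at 100%. Both confluent values lay above both sparse ones, barely so with ns shRNA. The confluence ratio was 0.05 with ns shRNA and 1.00 with p73 shRNA. The difference between these ratios, 0.95, has no test with 1 array per group. Among 1952 probe sets within 0.5 log2 units of its mean brightness, 1.23% had a difference of that size or larger. Probe set 209652_s_at of the same gene did not share it, with 88.1 and 193 at 40% and 137 and 108 at 100%, so its difference was -1.34, of opposite sign. Of 2018 probe sets of like brightness 3.91% reached that size.

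VEGFC and PGF are the other VEGF ligands above the filter. VEGFC was lower at confluence, and of the 2 PGF probe sets only 215179_x_at was higher on both confluent arrays, as VEGFA was. The start regions of VEGFC and PGF are shown, and for VEGFA only the name is given. Each is 250 bases before a RefSeq transcription start (GRCh38.p14), 5′ to 3′ on the gene's strand, with matches to the HIF core, ACGTG or GCGTG on either strand, in capitals. The VEGFC window is chr4:176792923-176793172, minus strand. The PGF window is chr14:74955598-74955847, minus strand, before 1 of its 2 listed starts.
VEGFC: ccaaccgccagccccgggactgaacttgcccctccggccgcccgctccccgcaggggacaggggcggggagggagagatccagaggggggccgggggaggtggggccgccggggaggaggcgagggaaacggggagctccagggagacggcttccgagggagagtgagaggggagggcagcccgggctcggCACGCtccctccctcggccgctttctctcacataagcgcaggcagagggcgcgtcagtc
PGF: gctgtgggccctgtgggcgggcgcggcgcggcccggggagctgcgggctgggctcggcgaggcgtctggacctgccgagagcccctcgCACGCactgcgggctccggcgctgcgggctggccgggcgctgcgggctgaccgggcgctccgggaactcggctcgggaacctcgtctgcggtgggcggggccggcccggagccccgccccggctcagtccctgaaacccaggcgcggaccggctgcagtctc
Each holds 1 match, read as CACGC on this strand, beginning 59 bases before the VEGFC start and 162 bases before the PGF start. The window before the other PGF start holds none. Windows were examined for 7 of the 10 members, and VEGFA, NRP1 and ANGPT1 were not among them. Member windows on the chromosome that carries ANGPT1 were left out, so the count does not cover that gene. Besides VEGFC and PGF, the windows of VEGFB, FLT1 and ANGPTL4 hold 1 match each, and those of NRP2 and ANGPTL2 hold none. A match occurs in 43.2% of 35116 such windows. That share is per window, whereas 5 of 7 counts genes over 8 windows, with PGF counted for 1 of its 2. The count describes these letters and no bound factor.

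FLT1, a VEGF receptor tyrosine kinase that also occurs as a secreted decoy, was measured above the filter by 1 of 3 probe sets. Probe set 222033_s_at read 192 (ns) and 176 (p73 shRNA) at 40%, and 191 and 223 at 100%. The stages overlapped, and the confluence ratios were -0.01 and 0.32. The other 2 probe sets stayed between 4.61 and 73.4 on all arrays and overlapped too.

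The neuropilins were slightly higher at confluence on most of their probe sets, though most of these lay below the brightness filter. NRP1, co-receptor for VEGFA and semaphorin 3A, read 1872 (ns) and 1893 (p73 shRNA) at 40%, and 2707 and 2522 at 100% on probe set 212298_at, an average log2 difference of 0.47 (SE 0.18). Probe set 210510_s_at opposed it, with 474 and 433 at 40% and 345 and 409 at 100%. The third, 210615_at, was below the filter, with 18.6 and 25.9 at 40% and 46.0 and 56.3 at 100%. In all 3 the stages did not overlap, with 2 higher and 1 lower at confluence; over all probe sets above the filter 63.7% did not overlap.

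NRP2, co-receptor for VEGFC and semaphorin 3F, read 118 (ns) and 110.4 (p73 shRNA) at 40%, and 168 and 142 at 100% on probe set 219367_s_at, the only 1 of its 5 above the filter. The average difference was 0.40 (SE 0.18). Of the other 4, all below the filter, 3 were higher on both confluent arrays and 1, 211844_s_at, overlapped. Of all probe sets above the filter, 33.1% were higher without overlap. Their intensities ranged from 2.20 to 138.

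ANGPT1, the activating ligand of TEK, was lower at confluence with either hairpin. Probe set 205608_s_at read 619 (ns) and 547 (p73 shRNA) at 40%, and 274 and 244 at 100%. Log2 ratios of -1.14 and -1.13 averaged -1.14 (SE 0.17), a level 2.20-fold lower in confluent cells. Probe set 205609_at read 621 and 472 at 40%, and 279.7 and 241 at 100%, with ratios of -1.12 and -0.94 and an average of -1.03. The stages did not overlap on either. The antagonist ANGPT2 stayed between 4.50 and 18.5 on all arrays.

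ANGPTL4, a secreted inhibitor of lipoprotein lipase, was below the filter with 37.2 (ns) and 49.3 (p73 shRNA) at 40%, and 97.4 and 35.1 at 100%. Only the confluent ns shRNA culture was high. The confluence ratio was 1.16 with ns shRNA and -0.38 with p73 shRNA, a difference of -1.54 that has no test. Of 1992 probe sets as dim as this one 12.2% differed by as much.

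A limma model of confluence and hairpin was fitted to the 6759 genes above the filter, 1 probe set per gene. It called 30.6% of them for confluence at a Benjamini-Hochberg adjusted p below 0.05, 18.3% higher and 12.3% lower. Of the 10 members, 7 were in the fit and 3 were past that threshold, VEGFA on the higher side and VEGFC and ANGPT1 on the lower. An unadjusted p below 0.05 was reached by 6 of the 7, and by 42.3% of all genes. FLT1, NRP1, NRP2 and PGF were not past it, VEGFB and ANGPTL4 were below the filter, and ANGPTL2 was not measured. Since the members were chosen with this contrast in view, these counts test nothing about them. Their median difference was 0.40, against 0.01 over all genes. Of their 12 probe sets above the filter 6 were higher and 4 lower without overlap between the stages, and 63.7% of all 9952 such probe sets showed no overlap, 33.1% higher and 30.7% lower. Of the 6, VEGFA probe set 210513_s_at was under the filter on both sparse arrays and passed it through the confluent ones, where it was high. The 2 ratios had opposite signs for FLT1 among the 7, and for 23.8% of all genes.

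The labels do not say that the cultures were independent, so the model's errors measure only the spread between these 4 arrays. Without the brightness filter limma called 0 genes for confluence, VEGFA included, against 2336 with an unadjusted p below 0.05.

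**Figure D2:**
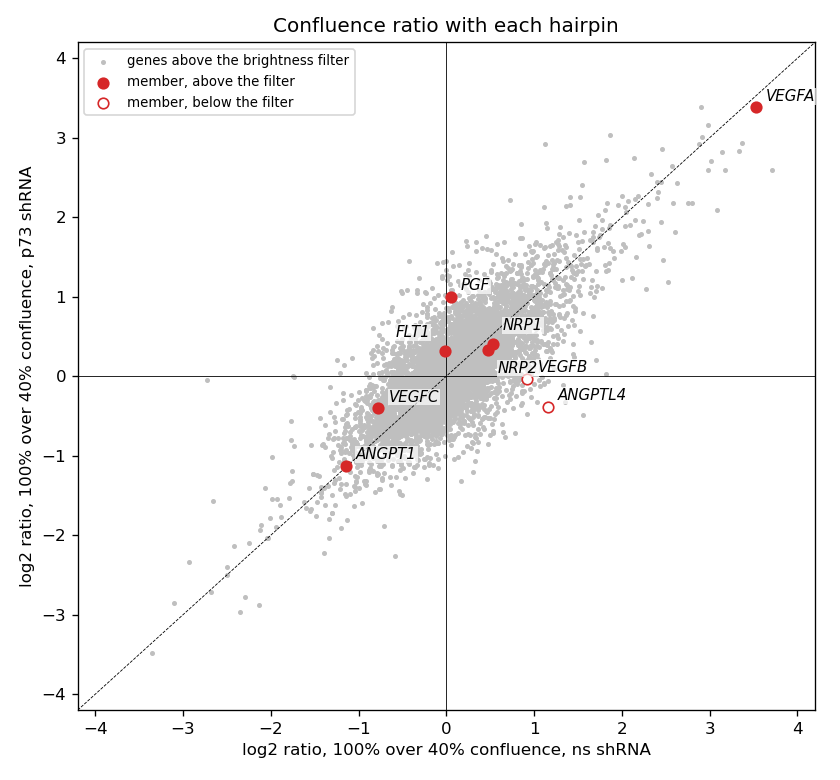
Log2 ratio of 100% over 40% confluence with ns shRNA (x axis) and with p73 shRNA (y axis); grey points are the 6759 genes above the filter, red points the members (open if below it), and the dashed line marks equal ratios. VEGFA lies at the far upper right at 3.53 and 3.38, ANGPT1 on the line at -1.14 and -1.13, and PGF, VEGFB and ANGPTL4 away from it.

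The effect of p73 shRNA was taken at each stage against ns shRNA, the comparison from which the study reads what p73 does. None of the 7 members in the limma fit was past its threshold, against 1.09% of all genes, 0.385% higher and 0.71% lower. An unadjusted p below 0.05 was reached by 0 of the 7, and by 11.9% of all genes. Average log2 differences of the 7 ranged from -0.24 (SE 0.18) for VEGFA to 0.05 (SE 0.18) for FLT1 and VEGFC, with a median of -0.04 against -0.00 over all genes. On the probe set that stood for the gene, VEGFA was lower at both stages, by ratios of -0.17 and -0.32, and so were ANGPT1 (-0.17 and -0.16) and NRP2 (-0.09 and -0.23). VEGFA probe set 210513_s_at was higher at both stages (1.08 and 0.11) and 212171_x_at higher at 40% (0.48 and -0.15). The dimmest VEGFA probe set, 211527_x_at, was below the filter and lower at both stages (-2.16 and -0.03). VEGFC (-0.14 and 0.23), PGF (-0.50 and 0.45), FLT1 (-0.12 and 0.22) and NRP1 (0.02 and -0.10) changed sign between the stages. Of all genes, 41.5% did so. These differences are too small for this model to separate from zero, which does not show that the hairpin left the genes as they were.

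Of the 22 member probe sets, only that of VEGFB was higher on both p73 shRNA arrays than on both control arrays, and 11% of the probe sets above the filter were. Its log2 ratios were 1.04 at 40% and 0.08 at 100%, and it was itself below the filter. ANGPTL4, also below the filter, had a ratio of -1.22 at 100% confluence and of 0.32 at 40%. The ratios at the 2 stages share no array.

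**Figure D3:**
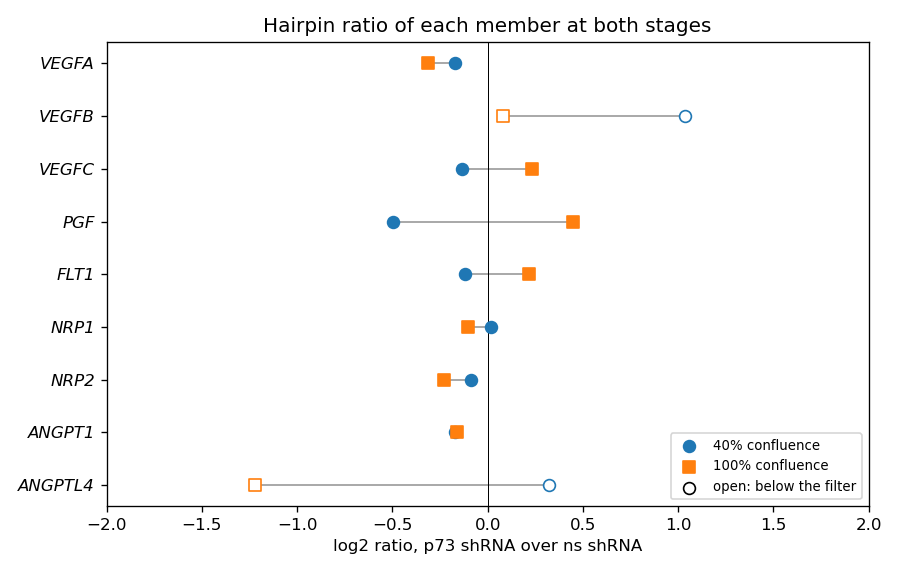
Log2 ratio of p73 over ns shRNA for the chosen probe set of each measured member at 40% (circles) and 100% confluence (squares); open symbols are below the brightness filter. The 7 filled members lie between -0.50 and 0.45, and the wide pairs are PGF, VEGFB and ANGPTL4.

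The profile of VEGFA over the 4 arrays was set against those of all other genes above the filter, by the root mean square difference of mean-centred log2 values. The nearest 5 were NDRG1 (0.17), CCNG2, an atypical cyclin (0.21), DDIT4, an inhibitor of mTOR signalling (0.24), ZNF395 (0.26) and C1RL (0.28). NDRG1 read 454 (ns) and 448 (p73 shRNA) at 40%, and 4802 and 3511 at 100%. C1RL was under the filter on both sparse arrays, at 62.1 (ns) and 47.6 (p73 shRNA), and passed it through the confluent ones. The likeness rests on 4 arrays, and the choice of VEGFA was made on the same values.

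Other genes of the pathway were taken from lists written with earlier results of these arrays known, and were tested in the same limma fit over all genes. Neither of the 2 other VEGF receptors on the array, and none of 6 other angiopoietin-family genes and TIE receptors, lay above the filter. Among class 3 semaphorins and their plexin receptors, which share the neuropilins, 4 of 5 above the filter rose at confluence and none fell. PLXNA1, a plexin that pairs with NRP1, averaged 1.24 (SE 0.18, limma adjusted p 5.67e-05), with 415 and 406 at 40% and 968 and 1002 at 100%. The ligands SEMA3F (0.62, limma adjusted p 0.016) and SEMA3C (0.49, limma adjusted p 0.045) and the receptor PLXND1 (0.51, limma adjusted p 0.0391) also passed. After quantile normalization, or without the hairpin in the model, PLXNA1 alone passed, PLXNA1 and SEMA3F with the lower pseudocount or every probe set, and none of 4 with the mean of probe sets. The list's median was 0.51, against 0.01 over all genes.

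Signal transducers downstream of VEGF receptors mostly did not pass: 3 of 28 rose and 2 fell, with a median of 0.07. The phospholipase PLA2G4A (1.33), the transcription factor NFATC1 (0.71) and the protease CASP9 (0.63) rose, and the sphingosine kinase SPHK1 (-1.44) and the GTPase HRAS (-0.65) fell. With an intensity trend in the moderation 7 rose, and with the mean of probe sets only PLA2G4A did. Heparan sulfate proteoglycans, which hold VEGF at the cell surface and in matrix, split evenly. Syndecan SDC3 (1.02), perlecan HSPG2 (0.95) and agrin AGRN (0.86) rose, glypican GPC1 (-0.89), SDC2 (-0.82) and SDC1 (-0.54) fell, and 2 of 8 did not pass. HSPG2 had confluence ratios of 1.71 with ns shRNA and 0.20 with p73 shRNA, a difference that was not tested.

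Of 7 matrix proteins that bind VEGF or restrain vessel growth, 3 rose and 3 fell. The anti-angiogenic serpin SERPINF1 (PEDF) read 194 (ns) and 125 (p73 shRNA) at 40%, and 1022 and 786 at 100%, an average of 2.44 (SE 0.18, limma adjusted p 3.69e-08). Thrombospondin THBS2 rose by 1.77 and TIMP3, which blocks VEGF binding to KDR, by 0.70. CCN2, a VEGF-binding matricellular protein, fell from 3951 and 4079 to 765 and 512, an average of -2.66 (limma adjusted p 3.38e-08). The protease ADAMTS1 (-2.03) and thrombospondin THBS1 (-0.74) fell too. Other angiogenic ligands gave 3 rises and 5 falls among 10, with a median of -0.31. PTN (1.43), PDGFD (0.92) and MDK (0.61) rose, and the vasoconstrictor peptide EDN1 (-2.51), the EGF-type ligand HBEGF (-1.83), FGF2 (-0.92), ADM (-0.69) and the chemokine CXCL8 (-0.68) fell. After quantile normalization, or without the hairpin in the model, ADM, CXCL8 and MDK did not pass. PDGFD was under the filter on both sparse arrays and passed it through the confluent arrays, where it was high.

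**Figure D4:**
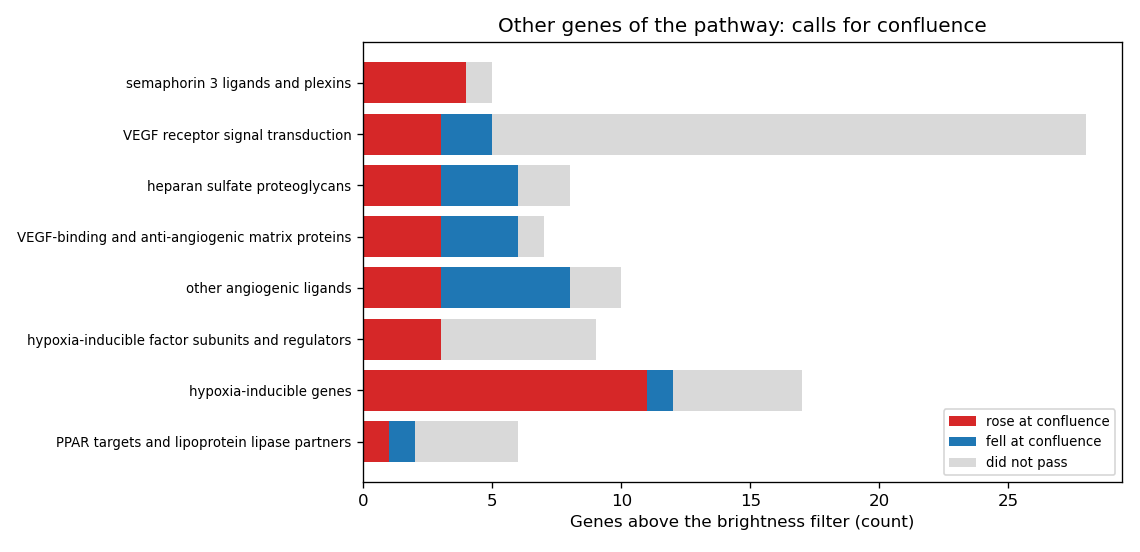
Number of genes above the brightness filter in each list of other pathway genes that rose (red), fell (blue) or did not pass (grey) for confluence in the limma fit. The hypoxia-inducible genes hold 11 of 17 that rose, and the signal transducers 23 of 28 that did not pass.

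Most of the listed hypoxia-inducible genes above the filter rose at confluence, as VEGFA did. Of 17 hypoxia-inducible genes above the filter 11 rose and 1, ADM, fell, with a median of 0.96. Over all genes 18.3% rose and 12.3% fell, with a median of 0.01. NDRG1 averaged 3.15 (SE 0.18, limma adjusted p 4.95e-09), the transcription factor BHLHE40 2.47, the histone demethylase KDM3A 1.84 and the mitophagy receptor BNIP3L 1.79. BHLHE40 was under the filter on both sparse arrays and passed it through the confluent ones, so 10 of the 11 do not rest on that. SLC2A1 (-0.10), LDHA (-0.12) and PGK1 (0.31), which carry glucose or run glycolysis, did not pass. The glycolytic enzyme HK2 was among those that rose (0.96), and STC2 (-0.27) and ERO1A (0.33) did not pass either. Of 9 HIF subunits and regulators 3 rose, the dimer partners ARNT2 (0.93) and ARNT (0.68) and the coactivator EP300 (0.61). ARNT2 too was under the filter on both sparse arrays. With the mean of probe sets ARNT2 alone rose, and of the 4 genes left by the stricter filter EPAS1 alone did. The oxygen-regulated subunits HIF1A (-0.08, limma adjusted p 0.781) and EPAS1 (0.40, limma adjusted p 0.0964) did not pass. The arrays hold no measure of oxygen or of HIF protein, and the part of HIF in these changes was not tested. Of 6 PPAR targets and lipoprotein lipase partners, the group to which ANGPTL4 is tied, HILPDA rose (1.22), SLC25A20 fell (-0.63) and 4 did not pass. Its lipase LPL read 1.43 to 21.5.

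With p73 shRNA 2 genes of these lists passed, both lower. EDN1 read 596 (ns) and 240 (p73 shRNA) at 40%, and 126 and 22.7 at 100%, an average of -1.64 (SE 0.20, limma adjusted p 2.33e-04). ADAMTS1 averaged -0.78 (limma adjusted p 0.0409), with 1706 and 923 at 40% and 381 and 234 at 100%. The ADAMTS1 call was lost in 6 alternatives: quantile normalization, the lower pseudocount, no filter, the mean of probe sets, every probe set, and no confluence in the model. The EDN1 call was lost without the filter and without confluence in the model, and EDN1 was under the stricter filter. A few cell type markers passed for the hairpin as well. They were 2 of 5 smooth muscle and pericyte markers and 1 of 14 fibroblast markers above the filter. The smooth muscle markers ACTG2 (-2.51, limma adjusted p 5.00e-07) and CNN1 (-0.84, limma adjusted p 0.0251) fell. The summed intensity of the 9 smooth muscle and pericyte markers was 6028 and 5690 with ns shRNA and 2362 and 2481 with p73 shRNA. ACTG2 alone read 3685 and 3033 with ns shRNA and 660 and 503 with p73 shRNA, at 40% and 100%. The fibroblast marker LUM fell too (-1.34, limma adjusted p 0.00512). The summed intensity of the 14 fibroblast markers was 81265 and 96171 with ns shRNA and 89339 and 100782 with p73 shRNA. The CNN1 call was lost in the same 6 alternatives as that of ADAMTS1, and the LUM call in those except the lower pseudocount. The ACTG2 call was lost without the filter and without confluence in the model. The part of these markers in the falls of EDN1 and ADAMTS1 was not tested. None of the 5 semaphorins and plexins, 28 signal transducers, 8 proteoglycans, 9 HIF subunits and regulators, 17 hypoxia-inducible genes and 6 PPAR-related genes passed in this fit. Medians of these lists lay between -0.25 and 0.01.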

How the data were processed

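Biotin-labelled RNA was hybridised to Affymetrix arrays by the standard protocol, per the labels. The authors deposited 1 intensity per probe set and array; for the software that summarised them, the sources used here give no name. The intensities are linear, their means after 2% trimming at both ends were 500.1 to 500.2, and they were used as deposited. Of 22277 probe sets 62 were controls, 19064 had 1 gene symbol, 1043 several and 2108 were not listed in the platform annotation; for 19052 a RefSeq table gave the current symbol through the Entrez ID.

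Intensities were converted to log2(intensity + 11.6), the 20th percentile of all values, which understates ratios of dim genes. Each gene was represented by the probe set of highest mean, and 6759 of 11963 genes reached the median brightness of all probe sets. limma 3.58.1 in R 4.3.3 fitted confluence and hairpin to the 4 arrays, with eBayes moderation (prior degrees of freedom 15.8), two-sided, with p-values adjusted by Benjamini-Hochberg over those 6759 genes. The single residual degree of freedom (1) is the difference of ratios between the hairpins. The p-values therefore rest largely on the prior. Its degrees of freedom were 2.35 without the filter and 227 with the stricter filter. The script was tested on simulated data. No intensity trend was used, because it made the prior infinite and ignored each gene's own spread.

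The members and lists were chosen with earlier results of these data known. Named were all members, up to 4 called genes per list and contrast by size, all genes of a count of 5 or fewer, and the 5 profiles nearest to VEGFA; other names were chosen after their values were seen. Sequences are from RefSeq. Figures were drawn with matplotlib 3.10.9. Alternatives are given in the closing section.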

Additional observations from a re-analysis of the deposited data

Results flagged for a closer look

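Several members had ratios of opposite sign in the cells with either hairpin or at either stage, and none of these differences was tested, because each group is 1 array. They are given as the confluence ratio with p73 shRNA minus that with ns shRNA, which equals the hairpin ratio at 100% minus that at 40%. For ANGPTL4 the difference was -1.54, and for FLT1 0.34, with opposite signs in both readings. For VEGFB it was -0.96, with a confluence ratio of 0.92 with ns shRNA and -0.03 with p73 shRNA. For PGF (0.95), VEGFC (0.37) and NRP1 (-0.12) the hairpin ratio changed sign between the stages. Over all genes above the filter the confluence ratio changed sign in 23.8% and the hairpin ratio in 41.5%. VEGFB and ANGPTL4 were below the filter.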

How the results depend on the processing

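The cause of the changes below was not tested. For confluence the model called 2070 genes, 0 without the brightness filter and 1152 without the hairpin in the model. Of the members 3 were called, 0 without the filter, and 5 with a pseudocount at the 40th percentile or with an intensity trend, where PGF and NRP1 joined. With a filter at the 70th percentile 4 were called, PGF and NRP1 among them, and ANGPT1 was below that filter. Without the hairpin in the model VEGFC was not called. Of the other pathway genes 45 were called, and 0 without the filter. For p73 shRNA the model called 74 genes: 15 after quantile normalization, 42 and 132 with a pseudocount at the 5th and 40th percentile, 132 with a filter at the 70th percentile, 7 with the mean of probe sets, 19 with every probe set as a feature and 184 with an intensity trend. Without the filter, or without confluence in the model, limma called 0 genes, with 766 and 72 at an unadjusted p below 0.05. No member was called for p73 shRNA under any of the 9 alternatives. The other pathway genes called for p73 shRNA numbered 2, with 1 after quantile normalization, the lower pseudocount, probe set means or all probe sets, 5 with the higher pseudocount, 6 with the stricter filter, 7 with the trend, and 0 without the filter or without confluence.

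Average confluence differences over the alternatives ranged from 2.78 to 3.50 for VEGFA, -0.59 to -0.58 for VEGFC, -1.23 to -1.03 for ANGPT1, 0.21 to 0.53 for PGF, 0.37 to 0.48 for NRP1, 0.24 to 0.43 for NRP2 and 0.01 to 0.16 for FLT1. With the mean of probe sets the hairpin difference of PGF was 0.17 and that of NRP1 0.10, both of opposite sign to the chosen probe set. Leaving out 1 array leaves no residual degree of freedom, and gives the ratio of the other hairpin or stage as printed. No paired analysis was possible because each group has 1 array and the labels number no replicates. VEGFB, ANGPTL4 and most NRP2 and FLT1 probe sets lay below the brightness filter, which limits what their ratios show.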

Other observations

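Some angiogenic genes that were below the brightness filter on average, and so had no test, were higher on both confluent arrays. Hepatocyte growth factor, HGF, read 4.17 (ns) and 34.6 (p73 shRNA) at 40%, and 163 and 122 at 100%. Angiogenin, ANG, a secreted ribonuclease, read 44.3 and 70.003 at 40%, and 243 and 172 at 100%. Thymidine phosphorylase, TYMP, read 10.1 and 20.2 at 40%, and 57.9 and 96.2 at 100%. FGF1 was lower, with 114 and 119 at 40% and 60.4 and 58.5 at 100%. These genes were picked after their values were seen.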
